A study of Rattus norvegicus with 6 samples.

Results

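The response of newborn rat heart muscle cells to phenylephrine was described from 4 arrays, 2 of phenylephrine-treated and 2 of untreated control cells, out of 6 in the series. All probe sets were used except the array's own controls, which left 31042 of 31099. The myocytes came from Wistar rats aged 1 to 2 days, were put through a density gradient to remove fibroblasts and were cultured in medium with 10% serum. The 17 fibroblast markers still had a mean log2 signal of 11.35 and 11.31 in control. Phenylephrine was given at 50 µmol/l. The treatment text of both phenylephrine samples also lists endothelin-1 and angiotensin II, while the series' design names phenylephrine alone for this group, and the group is called phenylephrine here on that basis. The remaining 2 arrays, of cells stretched biaxially to 112% for 24 h, entered the fit only to share the estimate of the spread and to give a second stimulus for named genes. All groups are primary cultures of 1 strain, and RNA from several preparations was pooled. No label ties the 2 arrays of a group to separate cultures. The p-values therefore rest on the spread between these 6 samples alone, and that spread may be technical. The duration of the phenylephrine treatment is not stated in these sources. The labelled cell type was checked against 12 ventricular myocyte markers, whose mean log2 signal was 13.78 and 13.67 in control, against 13.70 and 13.76 with phenylephrine.

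Phenylephrine is an agonist of α1-adrenergic receptors. These receptors act through the G protein Gq and phospholipase C on calcium release, protein kinase C and the MAP kinase ERK. In cultured newborn myocytes the agonist is a standard stimulus of hypertrophy, in which cells enlarge without dividing, add sarcomeres and turn on genes of the fetal heart, including the natriuretic peptides.

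All values below are log2 array signals or differences of them, and differences are phenylephrine minus control with the standard error (SE) of the fit, from 2 arrays a group. A gene or probe set is called where the Benjamini-Hochberg adjusted p of limma's moderated test was under 0.05, and a gene is represented by its brightest probe set with 1 gene symbol. Of 14217 genes, 343 were called higher (2.41%) and 335 lower (2.36%), 678 in all (4.77%). Over probe sets the counts were 538 higher (1.73%) and 579 lower (1.87%), 1117 in all (3.6%). The control and phenylephrine arrays did not overlap for any called probe set. They also did not overlap for 43.6% of all probe sets and 46.9% of all genes. A difference of at least 2-fold was reached by 76 genes called higher and 45 called lower. The median difference over all genes was 0.002. The fit was repeated without each of the 4 arrays in turn. For some named genes the number of refits that kept the call is given as "kept in 3 of 4". Named genes without this number may have lost their call in a refit. In each refit the group left with 1 array is assumed to vary like the other groups.

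**Figure D1:**
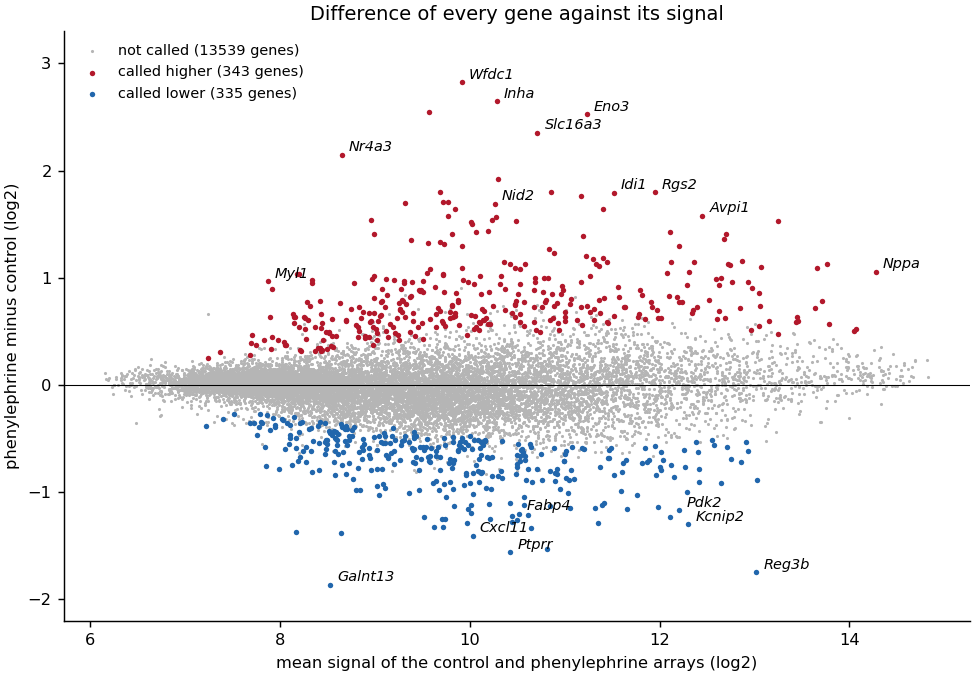
Phenylephrine minus control difference (log2, vertical axis) of each of 14217 genes against the mean signal of the 4 arrays (log2, horizontal axis). Red points are the 343 genes called higher, blue points the 335 called lower and grey points the rest. The largest rises, Wfdc1 at 2.82 and Inha at 2.65, exceed the largest fall, Galnt13 at -1.87.

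By the median gap, the 2 phenylephrine arrays differed from each other more than the arrays of either other group did. Over all probe sets the median size of the difference between the 2 arrays was 0.119 for phenylephrine, 0.077 for control and 0.081 for stretch. The 95th percentiles were 0.405, 0.290 and 0.306. Differences over 1 were fewest for phenylephrine, at 2 probe sets against 19 for control and 15 for stretch. Phenylephrine array 2 gave the lower signal for bright probe sets. In the brightest of 3 equal parts of the probe sets, the bright part, it lay below phenylephrine array 1 by a median of 0.197, and 12.3% of these probe sets were higher on it, against median differences of -0.082 for control and -0.086 for stretch. In the dim and middle parts the phenylephrine medians were 0.007 and 0.0. Array 2 also had the narrowest spread of values, with an interquartile range of 1.70 against 1.80 to 1.92 on the other 5 arrays. Its 16 hybridization control probe sets had a median of 9.14, against 9.88 to 10.11 elsewhere, and its 5S ribosomal RNA probe set read 9.37 against 10.59 to 11.77. The part of these technical values in the gene results was not tested.

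**Figure D2:**
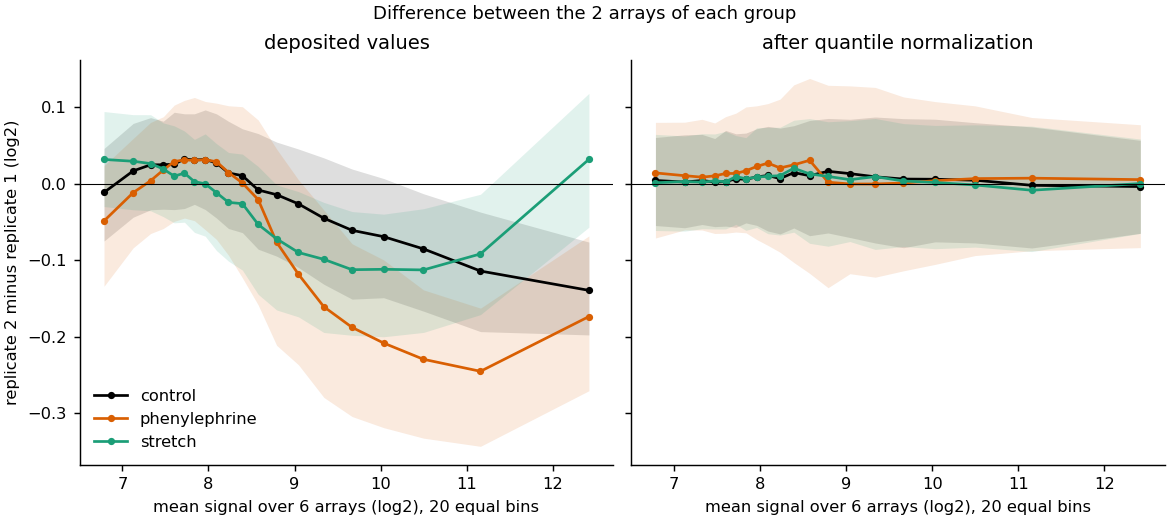
Median difference between the second and the first array of each group (log2, vertical axis) in 20 equal bins of mean signal (log2, horizontal axis), with shaded quartiles, for the deposited values (left) and after quantile normalization (right). On the deposited values the phenylephrine line falls below the control line among bright probe sets, with a median of -0.197 over the bright part. After normalization that median is 0.004.

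The 2 phenylephrine arrays nevertheless moved the same way for large changes. Pairing each phenylephrine array with a control array of its own number used no array on both sides. With array 1, 199 probe sets differed by over 1, and all 199 had the same sign with array 2. With the control arrays exchanged the count was 267 of 289, or 92.4%. Across the 31042 probe sets the differences of the 2 disjoint pairs correlated at r = 0.754, and at 0.42 with the control arrays exchanged, where probe sets share arrays and are not independent. The agreement was uneven by direction. Array 1 lay farther from the control mean for 467 of the 538 probe sets called higher, with medians of 0.772 and 0.609 on arrays 1 and 2. Array 2 lay farther for 502 of the 579 called lower, with medians of -0.536 and -0.706. After quantile normalization these counts were 268 of 538 and 353 of 579. The split of the calls moved with the arrays used: 48.2% of the calls were higher with all arrays, 28.9% (361 higher, 888 lower) without phenylephrine array 1 and 71.0% (552 higher, 226 lower) without phenylephrine array 2. There were 263 calls in all without control array 1, and 189 without control array 2.

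Wfdc1, a secreted protein with a whey acidic protein domain, read 8.58 and 8.43 on the control arrays and 11.57 and 11.09 on the phenylephrine arrays, a 7.09-fold difference (2.82 ± 0.17 SE, adjusted p = 0.00103). The inhibin α chain gene Inha read 9.02 and 8.90 against 11.82 and 11.39 (2.65 ± 0.15, 6.26-fold). Both phenylephrine arrays were far above both control arrays for these genes, while the stretch arrays lay near control. The largest falls were smaller. Galnt13, an enzyme that starts mucin-type sugar chains, read 9.64 and 9.28 on the control arrays and 8.05 and 7.13 on the phenylephrine arrays (-1.87 ± 0.28, adjusted p = 0.0134). Its 2 phenylephrine arrays lay well apart, the highest of its 3 probe sets had a difference of 0.11 (mean over the 3, -0.55), and without control array 1 its adjusted p was 0.0694. Among the 40 genes of the plot by array, 34 kept their call in all 4 refits. Fos lost its call without control array 2 (adjusted p = 0.0612), and so did Arrdc3 (0.0507). Lsmem1 lost it without control array 1 (0.115) and control array 2 (0.0904), and so did Slc4a1ap (0.0986 and 0.0866). Ctso kept it only without phenylephrine array 1 (0.0315), with 0.186, 0.0868 and 0.165 without control array 1, control array 2 and phenylephrine array 2.

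**Figure D3:**
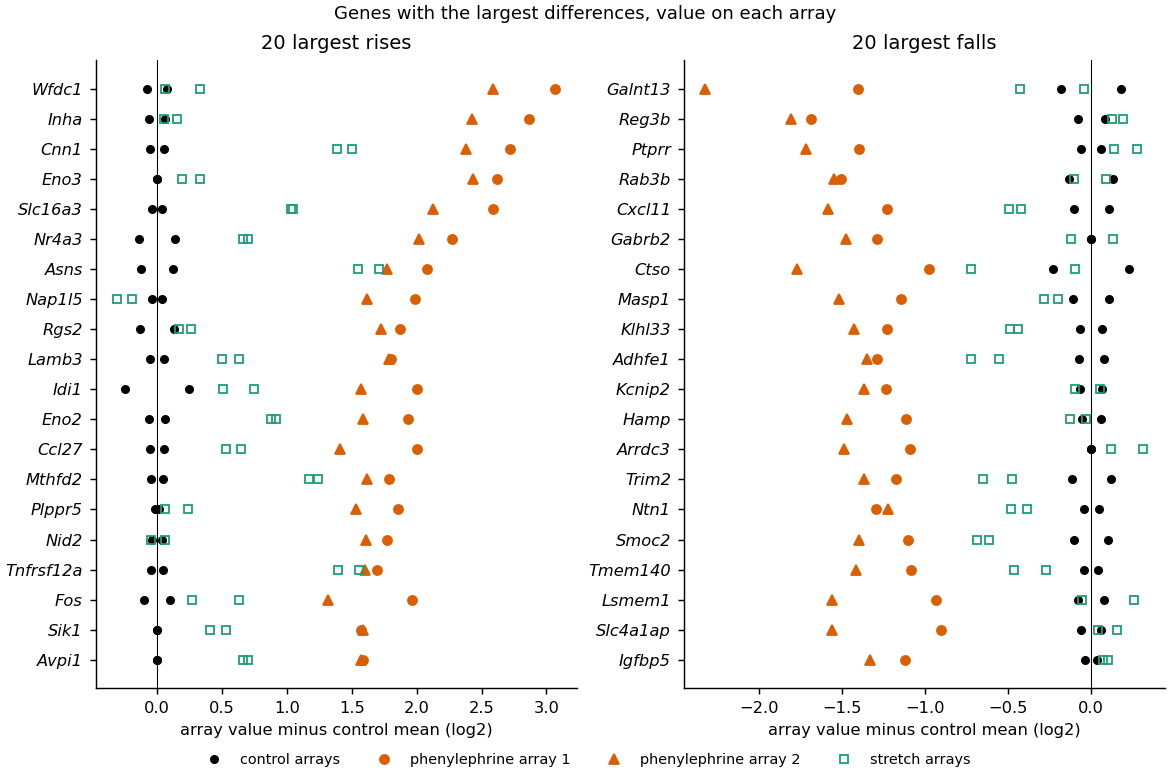
Signal on each array minus the control mean (log2, horizontal axis) for the 20 genes with the largest called rises (left) and falls (right). Black circles are control arrays, orange circles and triangles phenylephrine arrays 1 and 2, and green squares stretch arrays. For Nid2 and Rgs2 the stretch arrays lie beside control, whereas for Asns and Tnfrsf12a they lie close to phenylephrine.

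Some of the usual markers of hypertrophy rose. Of 14 measured, 5 were called higher and none lower (2.41% and 2.36% of all genes), with a median difference of 0.34. The atrial natriuretic peptide gene Nppa read 13.85 and 13.64 on the control arrays and 14.69 and 14.92 on the phenylephrine arrays (1.05 ± 0.12). The other called members were Fhl1 (1.53), Nppb (1.12), the skeletal actin Acta1 (1.09) and the Z-disc protein Csrp3 (0.78). All 5 were kept in 4 of 4. The slow myosin Myh7, with 0.23 ± 0.11 (adjusted p = 0.385), and the calcineurin regulator Rcan1, with 0.33 ± 0.14 (0.282), did not pass the test. The adult myosin gene Myh6 had a difference of 0.02 ± 0.10 (0.96). With each array scaled by its interquartile range 2 members of the list were called.

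**Figure D4:**
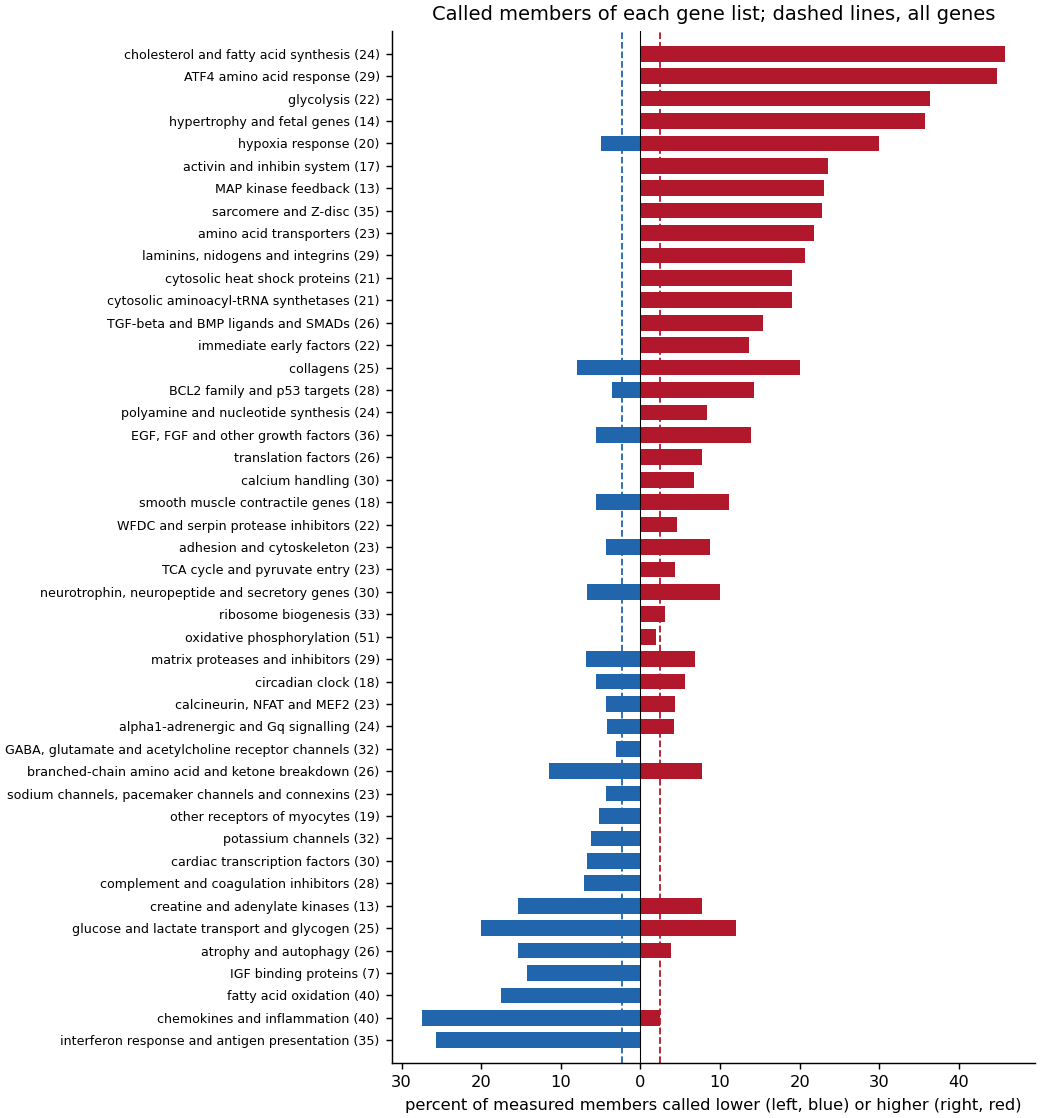
Percent of the measured members (number in parentheses) of each pathway list with a call that were called higher (red, right) or lower (blue, left). Dashed lines mark the share among all genes, 2.41% higher and 2.36% lower. The longest red bars are cholesterol and fatty acid synthesis (11 of 24) and the ATF4 amino acid response (13 of 29), and among these lists, which leave out the cell markers, the longest blue bars are chemokines and inflammation (11 of 40) and the interferon response (9 of 35).

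Of 24 genes of α1-adrenergic and Gq signalling, 1 was called higher and 1 lower, with a median of -0.008, where 4.77% of all genes were called in either direction. The receptor gene Adra1b fell, from 12.17 on both control arrays to 11.62 and 11.27 (-0.73 ± 0.14, adjusted p = 0.0318), and Prkca, a protein kinase C, rose by 0.34 ± 0.07 (0.0435). Adra1d differed by -0.35 ± 0.09 (0.0756). The angiotensin receptor gene Agtr1a fell by 0.50 ± 0.10. Adra1b and Agtr1a were kept only without phenylephrine array 1 (adjusted p 0.0159 and 0.0496), and Prkca in 0 of 4.

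Called genes of the RGS, phosphodiesterase and MAP kinase feedback groups follow, where 4.77% of all genes were called in either direction. Rgs2, which shuts off Gq, read 11.18 and 10.92 on the control arrays and 12.92 and 12.77 on the phenylephrine arrays (1.80 ± 0.13, adjusted p = 0.00138, kept in 4 of 4). It was the only one of 17 RGS genes called higher, and Rgs1 was called lower (-0.36, kept in 1 of 4). Pde4b, which breaks down cyclic AMP, rose from 9.84 and 9.61 to 11.38 and 11.12 (1.53 ± 0.15, kept in 4 of 4). It was the single call among 24 phosphodiesterase genes, and Pde4a had -0.32 ± 0.08 (0.0745). Of 13 genes of MAP kinase feedback, 3 were called higher, namely Spry1 (1.09), the ERK phosphatase Dusp5 (0.75) and Spry4 (0.58). Spry1 was kept in 4 of 4. It was the only call of the list without control array 1 or control array 2, against 3 higher and 1 lower without phenylephrine array 1 and 5 higher without phenylephrine array 2. Spry2 (0.70 ± 0.18, adjusted p = 0.0865), Dusp6 (0.67 ± 0.17, 0.0893) and Dusp1 (0.67 ± 0.16, 0.072) did not pass.

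Among 22 immediate early factors, transcription factors that respond first to a stimulus, 3 were called higher and none lower. The shares over all genes were 2.41% and 2.36%, and the median of the list was 0.118. The nuclear receptor Nr4a3 read 7.71 and 7.44 on the control arrays and 9.85 and 9.60 on the phenylephrine arrays (2.15 ± 0.11, 4.43-fold). Fos read 9.12 and 8.92 against 10.98 and 10.34 (1.64 ± 0.22), and another probe set of it had -0.01. Maff rose by 0.76 ± 0.08. Egr1 read 11.01 and 11.04 against 10.60 and 10.45, a difference of -0.50 ± 0.12 that did not pass the test (adjusted p = 0.0692). Nr4a1, a relative in the same receptor family, had 0.30 ± 0.10 (0.186). Nr4a3 and Maff were kept in 4 of 4. The means over all probe sets were lower, 1.12 for Nr4a3 and 0.81 for Fos. Sik1, a kinase known as a target of cyclic AMP signals, read 8.98 on both control arrays and 10.55 and 10.57 on the phenylephrine arrays (1.58 ± 0.10, kept in 4 of 4), and its other probe set had 0.31.

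Some ligands of the activin and TGF-β family, and some proteins that bind or block them, rose. Of 17 genes of the activin and inhibin system, 4 were called higher and none lower (2.41% and 2.36% of all genes). The median of the list was 0.081. Inhba, the activin A subunit, read 9.05 and 8.99 against 10.13 and 9.84 (0.97 ± 0.13), whereas Inhbb had 0.07 ± 0.05 (adjusted p = 0.591). Fstl3, which binds activin, read 9.35 and 9.36 against 11.01 and 10.55 (1.43 ± 0.16), and its relative Fst had 0.05 ± 0.07 (0.796). Bambi, a decoy receptor, rose by 0.96 ± 0.11. The adjusted p without control array 1 was 0.0526 for Inhba and 0.0553 for Bambi, and without control array 2 it was 0.0758 and 0.0679, so 2 members were called in each of these refits, and 4 in each refit without a phenylephrine array.

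In the list of 26 TGF-β and BMP ligands and SMADs, 4 were called higher and none lower (2.41% and 2.36% of all genes). The median of the list was 0.024. Tgfb3 read 9.27 and 9.23 on the control arrays and 10.95 and 10.59 on the phenylephrine arrays (1.52 ± 0.13). The other TGF-β ligands did not pass, Tgfb1 with -0.19 ± 0.09 (adjusted p = 0.354) and Tgfb2 with 0.32 ± 0.11 (0.205). Bmp7 rose from 9.08 and 9.13 to 10.54 and 10.49 (1.41 ± 0.09). The BMP targets Id4 (1.35, or 0.77 as the mean of its 4 probe sets) and Id1 (0.85) were also called higher. Leaving out control array 1, control array 2, phenylephrine array 1 and phenylephrine array 2 in turn gave 3, 2, 4 and 4 calls higher.

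Growth factors of other families split by member. Of 36 genes, 5 were called higher and 2 lower (2.41% and 2.36% of all genes), with a median of 0.039. Areg, a ligand of the EGF receptor, read 8.21 and 8.16 against 9.90 and 9.56 (1.54 ± 0.12, kept in 4 of 4), and Hbegf, another such ligand, rose by 0.95 ± 0.10 (kept in 4 of 4). Fgf18 (0.79) and Bdnf (0.63) were among those called higher, whereas Fgf1 (-0.79) and Ntf3 (-0.53) were called lower. Fgf18, Bdnf, Fgf1 and Ntf3 were kept in 1 to 3 of 4, and the means over all probe sets were 0.355 for Bdnf and -0.52 for Fgf1. The list had 3 calls higher and none lower without control array 1 or control array 2. Among 7 IGF binding proteins, Igfbp5 alone was called, from 10.09 and 10.16 down to 9.01 and 8.79 (-1.23 ± 0.11, kept in 4 of 4), and another of its 5 probe sets had 0.07 (mean over the 5, -0.33).

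The cyclic AMP response element, the palindrome TGACGTCA bound by CREB family factors, lay in the promoter of 12 of the 283 genes called higher that had a promoter sequence (4.24%) and of 4 of the 278 called lower (1.44%). It lay in 335 of 11733 promoters of measured genes (2.86%) and in 1.91% of all 27457. Promoters were taken from RefSeq (build GRCr8) as 250 bases before to 50 after the start site, and letters were searched on both strands. These 3 genes are shown as called genes with a whole element, Lamb3 and Avpi1 being among the 20 largest rises. Only bases before the start site are printed, and capitals mark the element, which begins 91, 44 and 165 bases before the start site. A match is a description of the sequence, not a bound site.
Areg, minus strand, chr14:17265685-17265782: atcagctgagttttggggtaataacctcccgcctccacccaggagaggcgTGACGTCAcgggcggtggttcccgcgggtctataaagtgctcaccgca
Lamb3, plus strand, chr13:107362459-107362552: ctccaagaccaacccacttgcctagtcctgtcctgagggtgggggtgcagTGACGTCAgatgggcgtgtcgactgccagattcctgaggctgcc
Avpi1, minus strand, chr1:250885566-250885663: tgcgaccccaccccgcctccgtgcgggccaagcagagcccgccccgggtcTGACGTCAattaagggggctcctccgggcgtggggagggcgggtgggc

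Of 35 sarcomere and Z-disc genes 8 were called higher and none lower (2.41% and 2.36% of all genes). Of the 35, 32 had a difference above 0. Their median was 0.226, and 0.092 after quantile normalization. The largest rises were Pdlim3 (1.04), the atrial light chain Myl4 (0.99), the skeletal light chain Myl1 (0.97) and Nrap (0.93). Myl1 read 7.36 and 7.40 on the control arrays and 8.51 and 8.19 on the phenylephrine arrays (0.97 ± 0.11). Pdlim3, which links actin to the Z-disc, read 11.58 and 11.53 against 12.62 and 12.57. Pdlim5 (0.73, or 0.31 as the mean of its 4 probe sets) and Tcap (0.73) followed. The sarcomeric α-actinin Actn2 had 0.28 ± 0.11 (adjusted p = 0.247). The refits without control array 1, control array 2, phenylephrine array 1 and phenylephrine array 2 gave 5, 1, 6 and 8 calls higher. Beside Csrp3, its LIM protein relatives Csrp2 (1.41 ± 0.11, kept in 4 of 4) and Csrp1 (0.62 ± 0.11, kept in 2 of 4) were also called higher.

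Cytoskeletal genes of smooth muscle and of microtubules rose in part. Over all genes 2.41% were called higher and 2.36% lower, the shares to set beside each count of this paragraph. Cnn1, a calponin of smooth muscle, read 8.35 and 8.25 on the control arrays and 11.02 and 10.68 on the phenylephrine arrays (2.55 ± 0.13, 5.85-fold). Of 18 smooth muscle contractile genes, Acta2 (0.96) was also called higher and the light chain kinase Mylk (-0.58) lower, while the smooth muscle myosin Myh11 had -0.17 ± 0.07 (adjusted p = 0.291). Cnn1 was the only call of this list without control array 1 or control array 2. Of 11 tubulins, 3 were called higher, namely Tubb6 (1.27 ± 0.12), Tubb4b (1.13 ± 0.10) and Tuba4a (0.72 ± 0.10). Tubb4b read 12.16 and 12.15 against 13.23 and 13.34. The means over all probe sets were 0.69 for Tubb6 and -0.29 for Mylk. Stmn1, which destabilizes microtubules, fell from 11.65 and 11.44 to 10.66 and 10.41 (-1.01 ± 0.14, kept in 2 of 4). Among 21 cytosolic heat shock proteins, the small muscle chaperone genes Hspb3 (1.15) and Hspb6 (0.86), with Dnajb5 (1.02) and Hspa1a (0.59), were called higher, the first 2 of them in 4 of 4 refits and the others in 2 of 4.

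Some glycolysis genes rose and some genes of fatty acid oxidation fell. Of 22 glycolysis genes 8 were called higher and none lower (2.41% and 2.36% of all genes), with a median of 0.23. Of 40 genes of fatty acid oxidation 7 were called lower and none higher, with a median of -0.311 and 35 below 0. Eno3, the muscle enolase, read 9.97 on both control arrays and 12.59 and 12.40 on the phenylephrine arrays (2.53 ± 0.12, 5.76-fold, adjusted p = 0.000968). All 3 enolases rose, Eno2 from 10.35 and 10.23 to 12.22 and 11.88 (1.76 ± 0.14) and Eno1 by 0.57 ± 0.11 (0.0303). The other calls were Pfkl (0.97), Tpi1 (0.72), Pfkp (0.69) and Hk2 (0.60), with 1 further member. Phosphofructokinase genes differed among themselves, since the muscle form Pfkm had -0.40 ± 0.11 (0.111). Eno3 and Eno2 were kept in 4 of 4 and Eno1 in 0 of 4, and 4, 3, 4 and 4 members were called without control array 1, control array 2, phenylephrine array 1 and phenylephrine array 2.

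Carriers and regulators of glucose use went both ways, with 3 of 25 called higher and 5 lower (2.41% and 2.36% of all genes). Slc16a3, the lactate exporter MCT4, read 9.57 and 9.50 on the control arrays and 12.12 and 11.66 on the phenylephrine arrays (2.35 ± 0.16, 5.11-fold). Slc16a7, another monocarboxylate carrier, fell from 8.20 and 8.25 to 7.59 and 7.35 (-0.76 ± 0.09), and Slc16a1 had 0.34 ± 0.12 (adjusted p = 0.193). Of the kinases that inhibit the pyruvate dehydrogenase complex, Pdk2 and Pdk4 fell. Pdk2 read 12.79 on both control arrays against 11.80 and 11.45 (-1.17 ± 0.14), and Pdk4 read 11.18 and 11.01 against 10.20 and 9.90 (-1.04 ± 0.14, or -0.60 as the mean of its 2 probe sets). Pdk1 had 0.64 ± 0.16 (0.0748). Glycogen phosphorylases diverged, with the liver form Pygl at 1.02 ± 0.12, the brain form Pygb at -0.91 ± 0.13 and the muscle form Pygm at -0.17 ± 0.12 (0.554). Slc16a3, Slc16a7 and Pygl were kept in 4 of 4 and Pdk2 in 3 of 4, with adjusted p = 0.0539 without control array 2. This list had 2, 1, 5 and 4 calls lower without control array 1, control array 2, phenylephrine array 1 and phenylephrine array 2.

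The genes of fatty acid use that fell cover binding, storage, import into mitochondria and oxidation. Fabp4, a fatty acid binding protein, read 11.17 and 11.07 on the control arrays and 10.09 and 9.74 on the phenylephrine arrays (-1.20 ± 0.14). The lipid droplet protein gene Plin5 read 9.50 and 9.49 against 8.61 and 8.49 (-0.95 ± 0.09, kept in 4 of 4). Cpt1a (-0.70), Acaa2 (-0.60) and Cpt2 (-0.58) act in import and oxidation, and each was kept in 1 of 4. The means over all probe sets were -0.46 for Cpt1a and -0.34 for Acaa2. Cpt1b, the muscle form of the import enzyme, had -0.53 ± 0.12 (adjusted p = 0.0682). Without control array 1 the list had 1 call lower, without control array 2 it had 2, without phenylephrine array 1 it had 9 and without phenylephrine array 2 it had 3. After quantile normalization 21 members were called lower. Oxidative phosphorylation genes gave 1 call of 51, Cox7a1 at 0.98 ± 0.21, with 1 member at an unadjusted p under 0.05. Over all genes 4.77% were called in either direction, the share to set beside the list counts here. Cox7a1 was not called in a fit of the 4 control and phenylephrine arrays alone, nor without the mean-variance trend. The median of the oxidative phosphorylation list, 0.053, became -0.07 after quantile normalization. In branched-chain amino acid and ketone breakdown 2 of 26 were called higher and 3 lower. Adhfe1 had -1.32 ± 0.11, Bckdha -0.97 and Mcee -0.66. Bckdha and Mcee did not keep their calls in every refit. In a fit of the 4 control and phenylephrine arrays alone 2 members were called higher and 2 lower. The creatine synthesis enzyme gene Gamt fell from 10.64 and 10.47 to 9.47 and 9.32 (-1.16 ± 0.12, kept in 4 of 4).

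Of 20 genes that respond to low oxygen 6 were called higher and 1 lower (2.41% and 2.36% of all genes). The median of the list was 0.332. Egln3, an oxygen-sensing prolyl hydroxylase, read 12.03 and 11.96 on the control arrays and 13.46 and 13.25 on the phenylephrine arrays (1.36 ± 0.11, kept in 4 of 4). P4ha1 (1.13), Bnip3 (0.94), Ddit4 (0.69) and Ankrd37 (0.64) were also called higher. Epas1, which encodes the factor HIF-2α, fell by 0.97 ± 0.18 (adjusted p = 0.0313, kept only without phenylephrine array 1), and the mean of its 2 probe sets was -0.50. Counts of calls higher were 3, 1, 6 and 6 without control array 1, control array 2, phenylephrine array 1 and phenylephrine array 2.

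**Figure D5:**
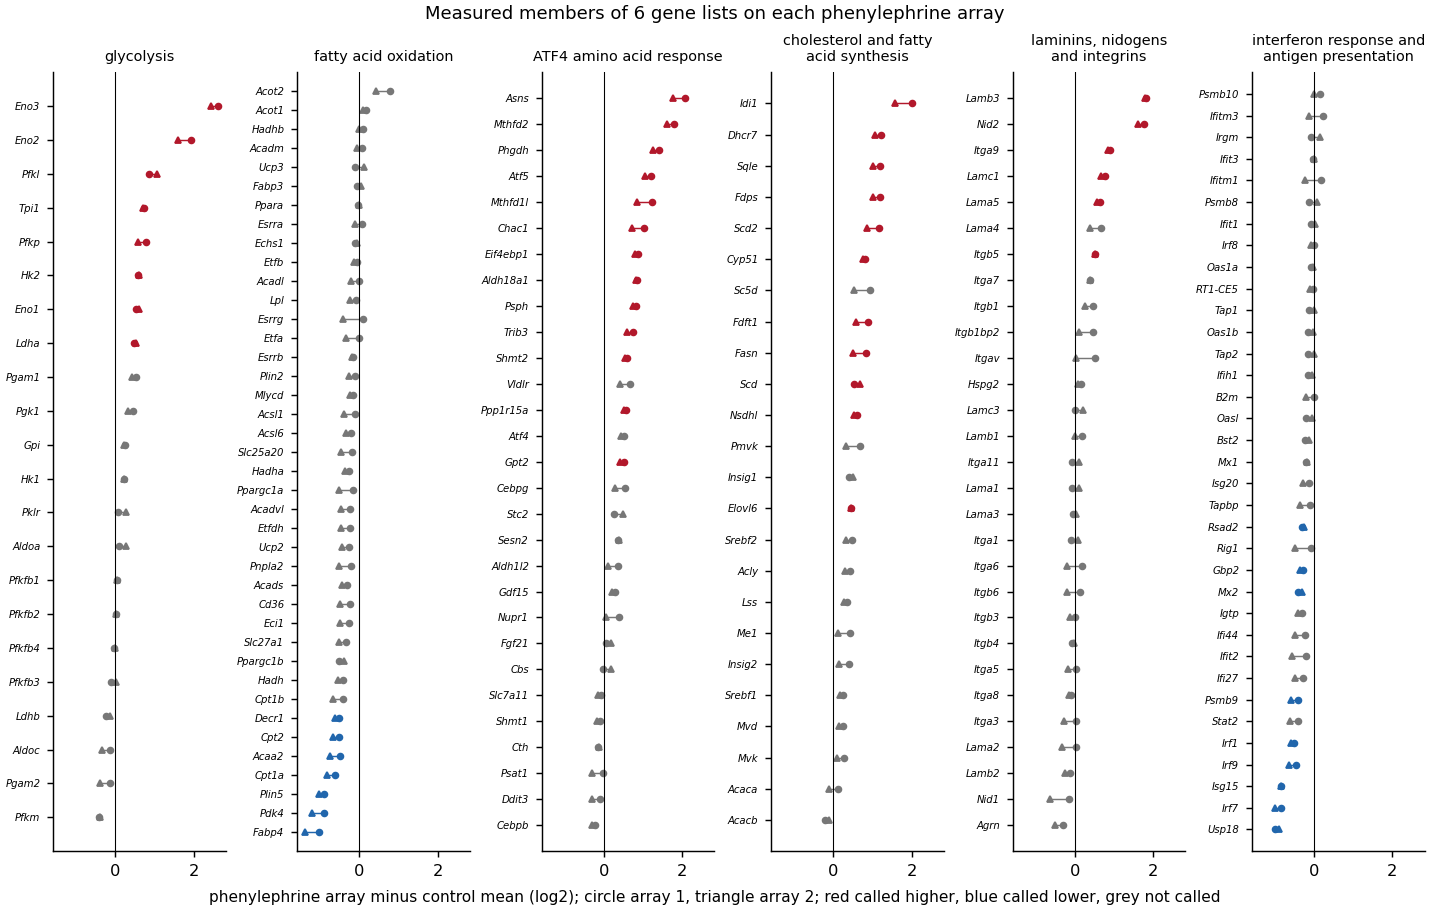
Each phenylephrine array minus the control mean (log2, horizontal axis) for all measured members of 6 gene lists, with circles for array 1 and triangles for array 2. Red members were called higher, blue lower and grey neither. In fatty acid oxidation 35 of 40 members have a difference below 0, and in cholesterol and fatty acid synthesis 23 of 24 have one above 0.

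Genes of the amino acid response under the transcription factor ATF4 gave the largest number of calls of any list, 13 of 29 higher and none lower, with a median of 0.461. Stretch minus control had a median of 0.537 over this list, with 9 members called higher. Over all genes 0.521% were called in that comparison. Between phenylephrine and stretch 5 members were called, none of them higher with phenylephrine. Asns, which makes asparagine, read 9.46 and 9.21 on the control arrays and 11.41 and 11.11 on the phenylephrine arrays (1.93 ± 0.15). The mitochondrial folate enzyme gene Mthfd2 read 8.82 and 8.90 against 10.65 and 10.48 (1.70 ± 0.11). Phgdh, the first enzyme of serine synthesis, read 9.02 and 9.01 against 10.44 and 10.27 (1.34 ± 0.12). These 3 genes were kept in 4 of 4. Atf5 (1.13), Mthfd1l (1.04), Chac1 (0.87) and, named for its promoter, Trib3 (0.67) were also called higher. Atf4 itself had 0.47 ± 0.11 (adjusted p = 0.0576). Psat1, the enzyme after Phgdh in serine synthesis, had -0.16 ± 0.13 (0.624). The stress factor gene Ddit3 had -0.19 ± 0.12 (0.504). With control array 1, control array 2, phenylephrine array 1 and phenylephrine array 2 left out in turn there were 6, 4, 13 and 13 calls.

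Some amino acid carriers and enzymes that load transfer RNAs also rose, where 2.41% of all genes were called higher and 2.36% lower. Of 23 amino acid transporters 5 were called higher and none lower, with a median of 0.123, and the largest were Slc7a1 (0.89), Slc1a3 (0.85) and Slc6a6 (0.68). The leucine carrier gene Slc7a5 had 0.35 ± 0.11 (adjusted p = 0.152). Of 21 cytosolic aminoacyl-tRNA synthetases 4 were called higher and none lower, Gars1 (0.91), Wars1 (0.78), Yars1 (0.62) and Eprs1 (0.60), with a median of 0.343. Stretch minus control had medians of 0.238 for the transporters and 0.454 for the synthetases. Over all probe sets of a gene the phenylephrine minus control means were 0.53 for Slc7a1, 0.52 for Slc1a3 and 0.34 for Eprs1. Neither list had a call without control array 1 or control array 2. Without phenylephrine array 1 the counts were 3 and 2, and without phenylephrine array 2 they were 5 and 6.

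The same 7 motifs were searched in the 11 promoters of called members of the amino acid response. AP-1 and CCAAT lay in 3 each (27.3%), against 5.44% and 37.3% of promoters of measured genes, and the cyclic AMP response element in 1. The element bound by ATF4 with C/EBP partners, searched as TGATGNAA, lay in 2, those of Chac1 and Trib3 (18.2%), and in 259 of 11733 promoters of measured genes (2.21%). Over all genes called higher it lay in 11 of 283 (3.89%), and over genes called lower in 6 of 278 (2.16%). Both promoters are shown, with the element in capitals as it reads on the gene's strand, 167 and 21 bases before the start site.
Chac1, plus strand, chr3:126795914-126796011: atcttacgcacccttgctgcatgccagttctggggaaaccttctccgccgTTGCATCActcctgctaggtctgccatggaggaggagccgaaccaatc
Trib3, minus strand, chr3:161275534-161275604: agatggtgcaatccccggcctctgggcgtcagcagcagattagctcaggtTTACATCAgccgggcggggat

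Enzymes of cholesterol and fatty acid synthesis rose in the largest share of any pathway list, 11 of 24, with none lower, 23 above 0 and a median of 0.49. Idi1, an isomerase of the isoprenoid pathway, read 10.87 and 10.38 on the control arrays and 12.63 and 12.19 on the phenylephrine arrays (1.79 ± 0.21, adjusted p = 0.00504). Dhcr7, which completes cholesterol, read 9.83 and 9.75 against 11.02 and 10.86 (1.15 ± 0.11). Fdps read 12.66 and 12.39 against 13.71 and 13.53 (1.10 ± 0.12), and Sqle, which makes squalene epoxide, rose by 1.11 ± 0.13. The sterol demethylase gene Cyp51 (0.79) and, on the fatty acid side, Scd2 (1.01, or 0.42 as the mean of its 4 probe sets) were also called higher. Idi1, Dhcr7 and Fdps were kept in 4 of 4. The regulator genes Srebf2 (0.40 ± 0.11, 0.105) and Insig1 (0.47 ± 0.11, 0.0754) did not pass, nor did Sc5d (0.73 ± 0.16, 0.0512). Omission of control array 1, control array 2, phenylephrine array 1 and phenylephrine array 2 in turn gave 4, 4, 6 and 11 calls.

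Some genes of the basement membrane rose, and a collagen of fibrils fell. Of 29 laminins, nidogens and integrins 6 were called higher and none lower (2.41% and 2.36% of all genes), with a median of 0.031. Lamb3, a laminin β chain, read 9.90 and 10.01 on the control arrays and 11.76 and 11.74 on the phenylephrine arrays (1.80 ± 0.11). Nid2 read 9.46 and 9.38 against 11.19 and 11.03 (1.69 ± 0.11), whereas the related Nid1 had -0.38 ± 0.17 (adjusted p = 0.329). Itga9 (0.88), Lamc1 (0.72), Lama5 (0.60) and Itgb5 (0.51) were also called higher. Averaged over all probe sets the differences were 0.45 for Itga9, 0.26 for Lama5 and 0.30 for Itgb5. Lamb3, Nid2 and Itga9 were kept in 4 of 4, and the list had 3, 3, 5 and 4 calls higher without control array 1, control array 2, phenylephrine array 1 and phenylephrine array 2. Of 25 collagens 5 were called higher, with the basement membrane chains Col18a1 (0.94), Col4a1 (0.82) and Col4a2 (0.77) the largest, and 2 lower, Col3a1 (-0.62) and Col8a2 (-0.50). Col1a1 had -0.53 ± 0.12 (0.0602). Calls higher among collagens fell to 1 without control array 1 and 0 without control array 2, and were 3 and 4 without phenylephrine arrays 1 and 2, and Col3a1 was kept in 0 of 4. Timp1, an inhibitor of matrix proteases, rose by 1.21 ± 0.14 (kept in 3 of 4), and the proteases Mmp9 (-0.61) and Mmp12 (-0.62) fell, the first kept in 2 of 4 and the second in 1 of 4.

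Kcnip2, the subunit that sets the transient outward potassium current of myocytes, read 13.02 and 12.88 on the control arrays and 11.72 and 11.58 on the phenylephrine arrays (-1.30 ± 0.12, kept in 4 of 4), and another of its 3 probe sets had 0.09. Abcc9, the sulfonylurea receptor of ATP-sensitive potassium channels, read 12.04 and 11.88 against 11.12 and 10.55 (-1.12 ± 0.19), and its pore partner Kcnj11 had -0.53 ± 0.13 (adjusted p = 0.0697). These were the 2 calls of 32 potassium channel genes. Over all genes 4.77% were called in either direction, the share to set beside each list count of this paragraph. Kcnip2 alone was called without control array 1 or control array 2, and without phenylephrine array 1 there were 4. Gja5, which encodes connexin 40, fell from 11.67 and 11.59 to 10.63 and 10.34 (-1.15 ± 0.13, kept in 4 of 4), whereas the main ventricular connexin gene Gja1 had -0.02 ± 0.10 (0.966). Gabrb2, a GABA receptor subunit, read 9.33 and 9.34 against 8.05 and 7.86 (-1.38 ± 0.11, kept in 4 of 4), the single call among 32 ligand-gated channel genes. The means over all probe sets were -0.70 for Kcnip2, -0.69 for Gja5 and -0.70 for Gabrb2, whose other probe set had -0.02. Of 30 calcium handling genes Casq1 (0.98) and Cacnb2 (0.76) were called higher, both kept in 2 of 4, and the cardiac calsequestrin Casq2 had 0.25 ± 0.10 (0.264).

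Of 19 receptor tyrosine phosphatases 4 were called lower and none higher (2.36% and 2.41% of all genes), with a median of -0.059. Ptprr read 11.26 and 11.14 on the control arrays and 9.80 and 9.48 on the phenylephrine arrays (-1.56 ± 0.14). Ptprk read 11.09 and 11.02 against 9.96 and 9.70 (-1.23 ± 0.13), Ptprd read 11.30 and 11.14 against 10.13 and 9.88 (-1.22 ± 0.13), and Ptprf fell by 0.50 ± 0.10. The first 3 were kept in 4 of 4, and other probe sets of Ptprk and Ptprd gave differences up to 0.10 and 0.02 (means over all, -0.60 and -0.79). Without phenylephrine array 1 there were 6 calls lower. None of 15 cytosolic tyrosine phosphatases was called by limma, with 2 at an unadjusted p under 0.05. Of 17 ephrins and their receptors 3 were called lower, Epha4 (-0.87), Epha3 (-0.81) and Efnb3 (-0.69), with a mean over all probe sets of -0.55 for Epha4, and with only Epha4 called without control array 1, control array 2 or phenylephrine array 2.

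Several of the 40 genes belong to families called about as often as all genes (4.77%), such as the Rab genes, with 3 of 56 called, and the kelch-like genes, with 2 of 34. Rab3b, a GTPase of vesicle release, read 11.70 and 11.44 on the control arrays and 10.06 and 10.02 on the phenylephrine arrays (-1.53 ± 0.13). Its relative Rab3a had 0.41 ± 0.13 (adjusted p = 0.155). Nap1l5 rose from 8.83 and 8.75 to 10.78 and 10.40 (1.80 ± 0.13), and Nap1l1 had 0.26 ± 0.13 (0.38). Klhl33 fell by 1.33 ± 0.11, while Klhl40, a kelch protein of the thin filament, rose by 0.67 ± 0.11. Among 13 enzymes of the Galnt13 family no other was called, with Galnt1 at 0.30 ± 0.14 (0.343). Tnfrsf12a, the receptor of the cytokine TWEAK, read 10.54 and 10.63 against 12.28 and 12.18 (1.64 ± 0.12) and was the single call among 20 TNF family genes. Rab3b, Nap1l5, Klhl33 and Tnfrsf12a were kept in 4 of 4 and Klhl40 in 2 of 4.

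Several inflammatory genes fell. Of 40 chemokine and inflammation genes 11 were called lower and 1 higher, with a median of -0.093. Reg3b, a secreted lectin induced by cytokines, read 13.97 and 13.81 on the control arrays and 12.20 and 12.08 on the phenylephrine arrays (-1.75 ± 0.10, adjusted p = 0.00103). The chemokine Cxcl11 read 10.84 and 10.63 against 9.50 and 9.15 (-1.41 ± 0.14). Pla2g2a (-1.14), Vcam1 (-0.98) and Cxcl10 (-0.84) also fell. The call higher was Nfkbiz, a nuclear regulator of NF-κB (0.90 ± 0.12, kept in 3 of 4, or 0.46 as the mean of its 2 probe sets). Ccl2 had -0.39 ± 0.17 (0.308). Calls lower numbered 5, 5, 12 and 9 without control array 1, control array 2, phenylephrine array 1 and phenylephrine array 2. The hormone gene Hamp, which encodes hepcidin and responds to cytokines in liver, fell from 10.67 and 10.56 to 9.50 and 9.15 (-1.29 ± 0.14, kept in 4 of 4).

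The called interferon-responsive genes fell, 9 of 35, with none higher, 32 below 0 and a median of -0.189. Usp18, which removes the ISG15 tag, read 9.61 and 9.49 on the control arrays and 8.57 and 8.67 on the phenylephrine arrays (-0.93 ± 0.09). The factor Irf7 read 10.08 and 10.07 against 9.22 and 9.09 (-0.91 ± 0.10), and Isg15 fell by 0.83 ± 0.09. These 3 genes were kept in 4 of 4. Irf9 (-0.55), Irf1 (-0.54) and Psmb9 (-0.50) were called too, and Stat2 had -0.51 ± 0.11 (adjusted p = 0.0586). Calls numbered 3, 3, 10 and 4 without control array 1, control array 2, phenylephrine array 1 and phenylephrine array 2.

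The interferon-stimulated response element, the sequence bound by interferon-activated STAT and IRF factors, lay in 24 of the 278 promoters of genes called lower (8.63%) and in 6 of the 283 of genes called higher (2.12%). It lay in 351 of 11733 promoters of measured genes (2.99%) and in 3.77% of all promoters, and no test was run on these shares. Of the called interferon genes with a promoter 3 of 6 held it, Irf7, Gbp2 and Rsad2. These are shown with the chemokine Cxcl10 and with Tmem140, which is on no list and is 1 of the 20 largest falls (10.41 and 10.32 against 9.28 and 8.95, -1.25 ± 0.14). Gbp2 differed by -0.32 ± 0.06 and Rsad2 by -0.27 ± 0.06. Both are close in size to the smallest called difference over genes, 0.255, and neither kept its call in every refit. Capitals mark the element or its reverse complement, beginning 69, 31, 147, 243 and 216 bases before the start site.
Irf7, minus strand, chr1:205800043-205800142: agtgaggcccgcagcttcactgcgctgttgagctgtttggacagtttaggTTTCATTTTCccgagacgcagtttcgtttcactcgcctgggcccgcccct
Gbp2, plus strand, chr2:234005646-234005726: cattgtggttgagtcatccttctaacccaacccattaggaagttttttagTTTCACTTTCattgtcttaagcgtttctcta
Rsad2, minus strand, chr6:48788218-48788317: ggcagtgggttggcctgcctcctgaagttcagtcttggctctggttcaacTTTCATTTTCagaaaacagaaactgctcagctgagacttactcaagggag
Cxcl10, plus strand, chr14:15988816-15988872: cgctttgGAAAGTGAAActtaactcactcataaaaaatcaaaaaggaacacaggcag
Tmem140, plus strand, chr4:64503371-64503454: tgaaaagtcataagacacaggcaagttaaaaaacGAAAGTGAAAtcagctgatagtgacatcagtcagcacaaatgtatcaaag

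Some markers of the other cells in such cultures also moved, where 4.77% of all genes were called in either direction. Of 17 fibroblast markers 5 were called lower and none higher, with a median of -0.316. Their mean signal was 11.35 and 11.31 in control, against 11.06 and 10.94 with phenylephrine and 11.13 and 11.12 with stretch. The called ones were Dpt (-0.96), Ogn (-0.79), Postn (-0.58), Pdgfra (-0.53) and Col3a1, while the lineage factor Tcf21 had -0.18 ± 0.09 (adjusted p = 0.416) and Lum -0.63 ± 0.21 (0.179). Without control array 1, control array 2 or phenylephrine array 2, 1 marker was called. Of 13 leukocyte markers Cd68 was called lower (-0.52), and their mean signal was 9.30 and 9.29 against 9.15 and 9.01. Of 12 endothelial markers Kdr (-0.93) and Emcn (-0.55) were called lower, with mean signals of 8.66 and 8.70 against 8.49 and 8.47, and Vwf had -0.04 ± 0.05 (0.811). The mean over the probe sets of Kdr was -0.44. Cd68, Kdr and Emcn did not keep their calls in every refit. A fit of the 4 control and phenylephrine arrays alone called no leukocyte marker and 2 endothelial markers. Of 12 smooth muscle and pericyte markers Cnn1, the proteoglycan gene Cspg4 (1.30), Acta2 and Mcam (0.64) were called higher and Abcc9 lower, with mean signals of 9.48 and 9.46 against 9.83 and 9.70. No marker read 0 on any array. Array medians were 8.30 to 8.33, so a value above 0 does not show that a cell type was present. The part of these other cells in the falls of inflammatory, interferon, collagen, channel and fatty acid genes was not tested. In these cultures fewer cells of a type and less RNA per cell cannot be told apart. Ventricular identity genes gave 1 call of 12, Irx4 lower (-0.73, kept in 2 of 4, or -0.33 as the mean of its 2 probe sets).

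Of 26 regulators of protein breakdown 4 were called lower and 1, Bnip3, higher (2.36% and 2.41% of all genes), with a median of -0.289. Pik3ip1, an inhibitor of PI3 kinase, read 11.49 and 11.33 on the control arrays and 10.27 and 10.29 on the phenylephrine arrays (-1.13 ± 0.11, kept in 4 of 4). Txnip (-0.72), Klf15 (-0.70) and Foxo4 (-0.69) fell, the first kept in 2 of 4 and the others in 1 of 4. Averaged over all probe sets the differences were -0.51 for Pik3ip1 and -0.27 for Klf15. The muscle ubiquitin ligase genes Fbxo32 (-0.37 ± 0.09, adjusted p = 0.0773) and Trim63 (-0.43 ± 0.12, 0.124) did not pass. The refits without control array 1, control array 2, phenylephrine array 1 and phenylephrine array 2 gave 1, 1, 5 and 2 calls lower.

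Several lists tied to growth or stress had no called gene in limma's test. They were 23 ribosomal proteins (2 at an unadjusted p under 0.05), 39 cell cycle and DNA replication genes (8), 22 chaperones of the endoplasmic reticulum (5) and 26 NRF2 and antioxidant genes (8). The largest differences in these lists, by size, were Rpl18 at 0.27 ± 0.11 (adjusted p = 0.268), Mcm7 at -0.54 ± 0.13 (0.0766), Hyou1 at -0.42 ± 0.11 (0.087) and the metallothionein Mt2A at 0.51 ± 0.17 (0.184).

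Against the stretch arrays, 34 of the 40 genes with the largest differences were called in the same direction, 17 of 20 higher and 17 of 20 lower. Over all genes 0.837% were called higher and 0.999% lower in phenylephrine than in stretch, 1.84% in all, and 0.521% of genes were called in stretch against control. The 40 genes were chosen for large differences on the same phenylephrine arrays, so the count is a description. Wfdc1 exceeded stretch by 2.63 ± 0.17 (adjusted p = 0.000926), Inha by 2.54 ± 0.15 and Nap1l5 by 2.05 ± 0.13. Reg3b lay below stretch by 1.91 ± 0.10 (difference -1.91, adjusted p = 0.000716) and Ptprr by 1.77 ± 0.14 (difference -1.77). Asns had 0.30 ± 0.15 (0.489), with 11.05 and 10.88 on the stretch arrays, and Tnfrsf12a 0.17 ± 0.12 (0.652). Among members of the lists above, Trib3 (-0.96 ± 0.09, 0.00495) and Hspa1a (-2.26 ± 0.10, 0.000257) were lower with phenylephrine than with stretch, although both rose against control. Pla2g2a fell against control and was higher with phenylephrine than with stretch (0.87 ± 0.12, 0.0187). The natriuretic peptide Nppb had 0.07 ± 0.12 (0.891). The surface on which unstretched cells grew is not stated in these sources, so stimulus and culture conditions cannot be told apart in this comparison.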

How the data were processed

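Labelled RNA of 6 samples was hybridized to Affymetrix rat arrays. The deposited table holds 1 value per probe set and array, taken as log2 expression from its range, with array medians of 8.30 to 8.33. How the authors summarized and normalized the arrays is not stated in any label, so the deposited log2 values were used unchanged. Array number and signal, not read depth, limit the precision. Models were fitted in R 4.3.3 with limma 3.58.1 (lmFit, eBayes with a mean-variance trend) on all 6 arrays with 1 mean per group, on 31042 probe sets after 57 array controls were left out, and p-values were adjusted by Benjamini-Hochberg, with 3 residual and 4.8 prior degrees of freedom. Symbols came from the platform annotation, updated through RefSeq: 20826 probe sets had 1 symbol, 436 several and 9780 none, and no gene is named from the last 2 kinds. Of 678 called genes, 231 had over 1 probe set.

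The text names the 20 largest called rises and falls whose arrays do not overlap, called members of 49 pathway lists, 9 marker lists and 32 gene families (at most 6 a list), the largest difference of a list without calls, and relatives of these genes as values, some of them picked after their values were seen. Csrp1, Csrp2, Trib3, Gbp2 and Rsad2 fall outside this rule and were also picked after their values were seen. Members and lists were chosen with earlier results of these data known. Alternatives were a fit of 4 arrays, a replicate block, quantile normalization, scaling by interquartile range, omission of probe sets below the median signal, no trend, omission of each array and the mean of all probe sets of a gene. Exact permutation of 2 arrays against 2 cannot go below p = 0.333. Letters for 7 motifs were searched in promoters. Those not described above were AP-1 (TGANTCA) in 7.07% of promoters of genes called higher and 6.47% of those called lower, against 5.44% of measured genes, CCAAT in 38.2%, 38.8% and 37.3%, the CArG box in 2.12%, 0% and 1.35%, and the sterol regulatory element in 0%, 0% and 0.119%.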

Additional observations from a re-analysis of the deposited data

How the results depend on the processing

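The number of probe sets called was 1117 (538 higher, 579 lower) with all 6 arrays. It was 661 (353 and 308) in a fit of the 4 arrays alone, 2790 (1378 and 1412) after quantile normalization and 1978 (1125 and 853, 56.9% higher against 48.2%) with scaling by interquartile range. Without probe sets below the median signal it was 1190, and without the trend 1285. Of the 1117 calls, 655, 1115, 1023, 909 and 985 were shared with these settings in turn. Leaving out 1 array gave 189 to 1249 calls, 112 to 552 higher and 77 to 888 lower.

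With the replicate number as a block, 5384 probe sets were called (2154 higher, 3230 lower), all 1117 among them. Under it 21 fatty acid oxidation genes were lower and 1 higher, and of the NRF2 and antioxidant genes 5 were higher and 2 lower. Of 299 genes tabulated by the naming rule, 35 that missed the threshold passed it with the block, so a miss in the report does not show that a gene was unchanged. Deviations of arrays with equal numbers correlated at 0.487 between control and phenylephrine, 0.673 between control and stretch and 0.534 between phenylephrine and stretch, and at 0.388, 0.700 and 0.480 after quantile normalization. The labels do not say that a number marks a shared batch, and control and phenylephrine form only 2 such pairs, so the numbers were not taken to pair the arrays.

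The 235 called genes of the lists and families, of 1864 measured, became 592 with the replicate block and 458 after quantile normalization, and 72 to 242 when 1 array was left out. The count of the 40 genes called against stretch ranged from 28 to 39. The median size of the difference between the phenylephrine arrays, 0.119, was 0.095 after quantile normalization, 0.113 after scaling by interquartile range and 0.171 without probe sets below the median signal. Myh6 turned to -0.112 after quantile normalization and ranged from -0.020 (without control array 2) to 0.058 (without control array 1) when 1 array was left out, with -0.004 without phenylephrine array 2. Gja1 turned to 0.221 after scaling by interquartile range and ranged from -0.086 (without control array 2) to 0.051 (without control array 1), with 0.017 without phenylephrine array 1. Neither gene was called. Taking the mean over all probe sets of a gene moved 78 of 120 such genes by more than the larger group SD and turned the sign of no called gene. The cause of these changes was not tested. The smallest called difference over genes was 0.255. Background was not estimated, so no limit of detection is given for dim genes.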
